A study of Takifugu obscurus and Periophthalmus magnuspinnatus and Gallus gallus with 6 samples.

Results

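Sprouty proteins and the phosphatase DUSP6 are brakes on growth factor signalling. When a fibroblast growth factor (FGF), or another ligand of a receptor tyrosine kinase such as PDGFRA, activates the RAS to ERK kinase cascade, ERK induces genes whose products then dampen the cascade. SPRY1, SPRY2 and SPRY4 encode Sprouty inhibitors that act between the receptor and RAF, and DUSP6 encodes a cytoplasmic phosphatase that removes the activating phosphates from ERK. In the spinal cord, PDGFRA marks oligodendrocyte precursors, and FGF receptors are used by precursors and by astroglia. This report describes these 4 genes, out of 17007 genes in the chicken feature table, across the cells of the embryonic chicken spinal cord. The genes were chosen with results of these data known, because SPRY2 was high in early precursors, so that early precursors set against other cells are given below as a description with no test.

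Single-cell RNA-seq was performed on spinal cord of chicken (Gallus gallus) embryos at embryonic days 10 to 11, Hamburger-Hamilton stages 36 to 37, in 2 libraries that the labels number 1 and 2. No treatment or mutation was applied, each library pooled several embryos, and cells were released with pronase and sorted for propidium iodide exclusion before 10x Genomics 3' capture. The study's methods place the tissue at the rostral, wing level of the cord, so the libraries do not sample its whole length. Fugu and mudskipper libraries of the same series were not used. After a minimum of 5000 UMIs (unique molecular identifiers, one per captured transcript) in library 1 and 5500 in library 2, 8158 and 8293 barcodes were left, and 7626 and 7743 remained after the removal of predicted doublets. Kept cells had a median of 12130 and 12434 UMIs in libraries 1 and 2. The libraries shared 17 barcodes, and leaving these out changed no call given below. The files give symbols and identifiers without coordinates: SPRY1 is ENSGALG00010004116, SPRY2 is ENSGALG00010000711, SPRY4 is ENSGALG00010013372 and DUSP6 is ENSGALG00010013226.

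Cells were clustered without the 4 genes and the FGF pathway genes among the variable features, and the 19 clusters fell into 14 cell classes named from marker genes. In the oligodendrocyte lineage, clusters with at least 50 CPM (UMIs per 1000000 UMIs) of SOX10 were split into PDGFRA-high precursor-like cells (at least 500 CPM of PDGFRA), PDGFRA-low cells (at least 100 CPM), GPR17-high cells, a cluster led by CMTM7, and ENPP6-positive premyelinating-like cells, with separate cycling clusters where TOP2A reached 500 CPM. Outside the lineage were astrocyte or radial glia-like cells, cycling progenitors without SOX10, neuron-like, endothelial-like and erythroid-like cells, and clusters led by FN1 and by LECT1. PDGFRA was found in 99.5% and 97.7% of PDGFRA-high cells after every cell was thinned to 5000 UMIs. ENPP6 was found in 89.8% and 81.7% of ENPP6-positive cells. Over both libraries together GPR17 was highest in GPR17-high cells, at 1385 CPM. It was also 961 CPM in the CMTM7-led cluster and 617 CPM in PDGFRA-low cells, so it was not particular to that class. The 8 GPR17 precursor markers summed to 9323 and 9069 CPM in GPR17-high cells and 10247 and 9939 CPM in the CMTM7-led cluster. Levels below are CPM of the summed counts of a class, library 1 before library 2, and are compared within a gene, not between genes.

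SPRY2 had its highest levels in astroglia and in early precursors. Astrocyte or radial glia-like cells had 550.2 and 517 CPM of SPRY2 (534 ± 23.2, SD, n = 2 libraries), cycling progenitors without SOX10 had 498 and 426 CPM, and PDGFRA-high precursor-like cells had 419 and 342 CPM (380.2 ± 54.4). These 3 classes did not overlap one another, whereas PDGFRA-high cells overlapped their cycling counterpart, at 347 and 287 CPM. Along the lineage SPRY2 was 66.4 and 68.1 CPM in PDGFRA-low cells, 35.0 and 35.0 CPM in GPR17-high cells, 16.8 and 17.6 CPM in the CMTM7-led cluster, and 7.10 and 7.80 CPM in ENPP6-positive cells. Each of these steps was larger than the gap between the libraries, and the level in PDGFRA-high cells was 59.0 and 43.8 times that in ENPP6-positive cells, with free RNA not subtracted from either. Neuron-like cells had 10.7 and 13.5 CPM. Elsewhere, endothelial-like cells had 229 and 139 CPM, in only 26 and 24 cells, and the FN1-led cluster had 112 and 84.6 CPM. The FN1-led cluster was given no cell type name and carried markers of several types. Summed levels were 2265 and 2144 CPM of mural, 1899.8 and 1998 CPM of endothelial and 1666 and 1498 CPM of meningeal or mesenchymal genes. Excitatory neuron genes summed to 2670 and 2737 CPM. Few genes carried some of these sums. A marker counted as raised in at least 10% of cells and at 1.5 times the level of other cells. Raised were 6 of 7 meningeal or mesenchymal, 4 of 6 mural, 2 of 8 endothelial and 1 of 5 excitatory neuron markers.

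SPRY1 was ordered differently, with its highest level in early precursors. PDGFRA-high cells had 200.3 and 207 CPM and cycling PDGFRA-high cells 165 and 160.4 CPM, followed by the FN1-led cluster at 126 and 116 CPM and by astrocyte or radial glia-like cells at 91.1 and 86.5 CPM. None of these 4 classes overlapped its neighbour. PDGFRA-high cells thus had 2.20-fold and 2.39-fold the SPRY1 level of astroglia, where the same ratio for SPRY2 was 0.76 and 0.66. PDGFRA-low cells, at 38.4 and 40.0 CPM, overlapped cycling PDGFRA-low cells at 49.8 and 39.7 CPM. The lowest lineage levels were 9.59 and 9.56 CPM in GPR17-high cells, 4.45 and 4.34 CPM in ENPP6-positive cells, and 3.74 and 4.37 CPM in the CMTM7-led cluster, and the last 2 overlapped.

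SPRY4 separated precursors from astroglia most widely, with free RNA not subtracted. It reached 97.5 and 86.1 CPM in PDGFRA-high cells and 67.0 and 78.3 CPM in cycling PDGFRA-high cells, against 3.63 and 4.51 CPM in astrocyte or radial glia-like cells, a ratio of PDGFRA-high cells to astroglia of 26.9 and 19.1. Endothelial-like cells had 39.1 and 63.7 CPM and the FN1-led cluster 16.0 and 24.4 CPM. Within the lineage SPRY4 was 6.07 and 5.40 CPM in PDGFRA-low cells, overlapping neuron-like cells at 5.23 and 8.32 CPM. It was 1.73 and 1.61 CPM in GPR17-high cells and 0.568 and 0.271 CPM in ENPP6-positive cells, where the sums were 6 and 4 UMIs.

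DUSP6 was highest in the FN1-led cluster and in astroglial and endothelial-like cells. The FN1-led cluster had 129 and 116 CPM, astrocyte or radial glia-like cells 103 and 84.5 CPM, endothelial-like cells 101 and 75.3 CPM, and cycling progenitors without SOX10 77.5 and 77.3 CPM. The endothelial-like values overlapped those of astroglia and of cycling progenitors. PDGFRA-high cells followed at 68.2 and 46.5 CPM, which is 0.66 and 0.55 times the level of astroglia. Cycling PDGFRA-high cells had 30.5 and 28.6 CPM. PDGFRA-low cells had 7.77 and 5.08 CPM, GPR17-high cells 4.97 and 4.95 CPM and ENPP6-positive cells 1.70 and 1.43 CPM.

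**Figure D1:**
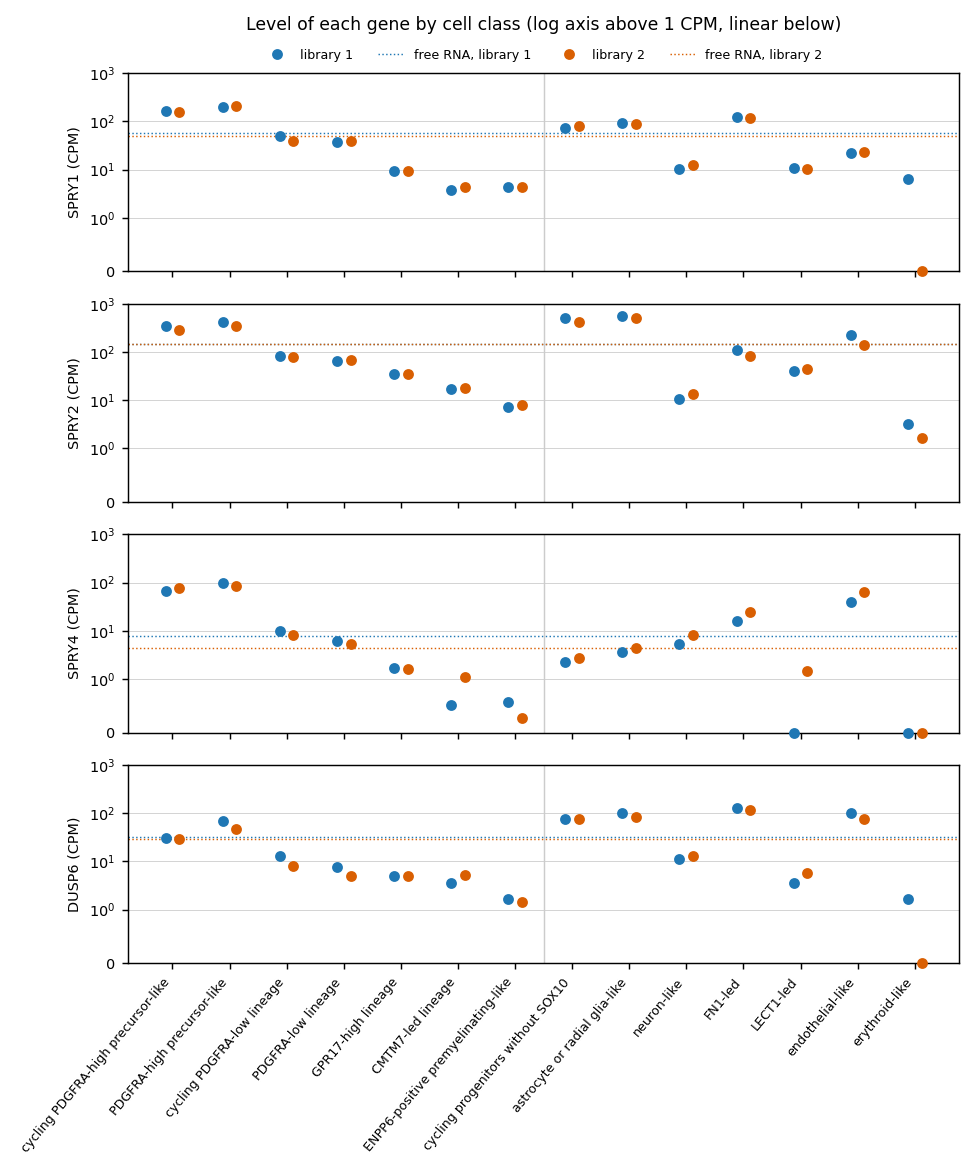
Level of SPRY1, SPRY2, SPRY4 and DUSP6 (CPM of summed UMIs, log axis above 1 CPM and linear below) in 14 cell classes, one point per library, with dotted lines at the level in free RNA of each library. SPRY1 and SPRY4 have their highest points in PDGFRA-high precursor-like cells, SPRY2 in astrocyte or radial glia-like cells (550.2 and 517 CPM) and DUSP6 in the FN1-led cluster (129 and 116 CPM).

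Free RNA in the droplets sets how low levels can be read. Barcodes with at most 100 UMIs had 148 and 148 CPM of SPRY2, 58.2 and 50.2 CPM of SPRY1, 7.86 and 4.33 CPM of SPRY4 and 32.9 and 29.6 CPM of DUSP6. In erythroid-like cells, which should lack these genes and had median depths of 14436 and 13158 UMIs, a SPRY2 UMI was found after thinning in 1 of 43 cells (2.33%) and in 0 of 44 cells, which allows a share of up to 6.82%. ENPP6-positive cells, at 3.78% and 3.51% of cells with a SPRY2 UMI and median depths of 12434.5 and 13062 UMIs, lay above the measured 2.33% and under that limit. For SPRY1 and DUSP6 the same numbers of erythroid-like cells had a UMI. For SPRY4 0 of 43 cells did, which allows a share of up to 6.98%, and 0 of 44 cells. For SPRY2, SPRY1 and DUSP6 the limit is thus that of library 2, and none was computed for library 1. Shares of library 1 are set against that limit below. GPR17-high cells, at median depths of 13238.5 and 13971 UMIs, lay above the limit for SPRY2, at 15.1% and 15.9%, but under it for SPRY1, at 3.74% and 4.21%, for SPRY4, at 0.623% and 0.485%, and for DUSP6, at 2.02% and 2.27%. The share was likewise under it for SPRY4 in astrocyte or radial glia-like cells, at 1.92% and 2.32% of cells, and in neuron-like cells, at 1.57% and 4.41%. PDGFRA-high cells were far above it for all 4 genes, with a UMI of SPRY2 in 80.3% and 76.4% of cells, of SPRY1 in 60.9% and 63.2%, of SPRY4 in 34.4% and 36.0%, and of DUSP6 in 28.1% and 18.4%. These limits cover counting error only.

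Astrocyte or radial glia-like cells were made of 2 clusters that differed in all 4 genes. In the cluster led by RXFP1, SPRY2 was 704 and 735 CPM and DUSP6 139 and 121 CPM, and in the cluster led by AQP1, SPRY2 was 326 and 252 CPM and DUSP6 50.2 and 39.7 CPM. The ratio of the first to the second was 2.16 and 2.92 for SPRY2, 3.79 and 3.89 for SPRY1, 2.76 and 3.06 for DUSP6, and 1.94 and 2.54 for SPRY4. In each library the level of PDGFRA-high cells, given above, lay between these clusters for SPRY2 and DUSP6. The order of PDGFRA-high cells and astroglia for these genes thus depended on the astroglial cluster. Among neuron-like cells 1 small cluster stood out for SPRY2 after its values were seen, that led by GRP, PKD1L2 and PKD2L1, with 37.2 and 47.7 CPM in 40 and 28 cells, whereas the other neuron-like clusters had between 8.89 and 16.5 CPM. PKD2L1 marks cells that contact the cerebrospinal fluid. Over both libraries together that cluster also had 50.2 CPM of PDGFRA, against 4.31 to 8.68 CPM in the other neuron-like clusters. SOX10 was at 32.3 CPM there, against 13.4 to 18.0 CPM, and the astroglial marker SLC1A3 at 102 CPM, against 25.3 to 34.1 CPM. The part of such glial transcripts in its SPRY2 level was not tested.

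The 4 genes were next followed along PDGFRA itself, in the 4061 and 4442 kept cells with at least 1 SOX10 UMI. Cells were put in strata of 0, 1 to 2, 3 to 5, and 6 or more PDGFRA UMIs of 5000 drawn. Since the genes were chosen on this axis, the values are a description. The stratum without PDGFRA held 93.3% and 89.9% lineage cells but also 2.76% and 3.92% astrocyte or radial glia-like cells, so the values below are for cells of the 8 lineage clusters. The strata largely re-sort the classes above. Non-cycling PDGFRA-high cells were 381 of 462 and 254 of 307 cells of the top stratum. In the bottom stratum they were 3 of 2501 and 8 of 2846 lineage cells.

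All 4 genes were higher with each step of PDGFRA in both libraries. From 0 to 6 or more PDGFRA UMIs, SPRY2 was 29.0, 74.1, 213 and 404 CPM in library 1 and 28.0, 78.6, 185 and 339.8 CPM in library 2. SPRY1 was 12.4, 41.6, 119 and 197 CPM in library 1 and 12.02, 43.5, 116 and 205 CPM in library 2. SPRY4 was 2.11, 7.97, 34.1 and 97.4 CPM in library 1 and 1.66, 8.54, 33.4 and 95.3 CPM in library 2. DUSP6 had 3.89, 9.91, 34.3 and 64.8 CPM in library 1 and 3.80, 6.13, 21.9 and 51.7 CPM in library 2. With free RNA not subtracted, the step was widest for SPRY4, with a ratio of the top stratum to the bottom of 46.2 and 57.3, against 16.0 and 17.1 for SPRY1, 13.9 and 12.1 for SPRY2, and 16.7 and 13.6 for DUSP6. In the bottom stratum SPRY4 was found in 1.08% and 0.808% of cells, under the erythroid-like limits of 6.98% and 6.82%. Free RNA had 148 and 148 CPM of SPRY2 but 7.86 and 4.33 CPM of SPRY4, and its part in this order was not tested. With astroglia and other classes left in, the ratios were 37.2 and 37.5 for SPRY4, 14.2 and 14.2 for SPRY1, 9.99 and 8.49 for SPRY2, and 9.65 and 7.72 for DUSP6.

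Above that the levels of SPRY2 and SPRY4 flattened. Cells with 6 to 8, 9 to 11, and 12 or more PDGFRA UMIs had 389, 413 and 424 CPM of SPRY2 in library 1 and 329, 364 and 331 CPM in library 2. For SPRY4 the same strata gave 85.3, 110.3 and 104 CPM in library 1 and 88.2, 103 and 102 CPM in library 2, higher at the first step only. Library 1 had the same order for SPRY1, at 186, 211 and 200 CPM, and for DUSP6, at 61.6, 70.5 and 62.8 CPM. In library 2 alone SPRY1 and DUSP6 were higher at each of these steps, at 188, 219 and 229 CPM of SPRY1 and 44.9, 56.5 and 62.6 CPM of DUSP6. Across lineage cells of a library, whose depth the points share, Spearman's rho of each gene with PDGFRA lay between 0.20 and 0.52 (n = 3873 and 4098 cells). Within the PDGFRA-high class it was weak, between -0.01 and 0.18 (n = 665 and 484 cells).

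**Figure D2:**
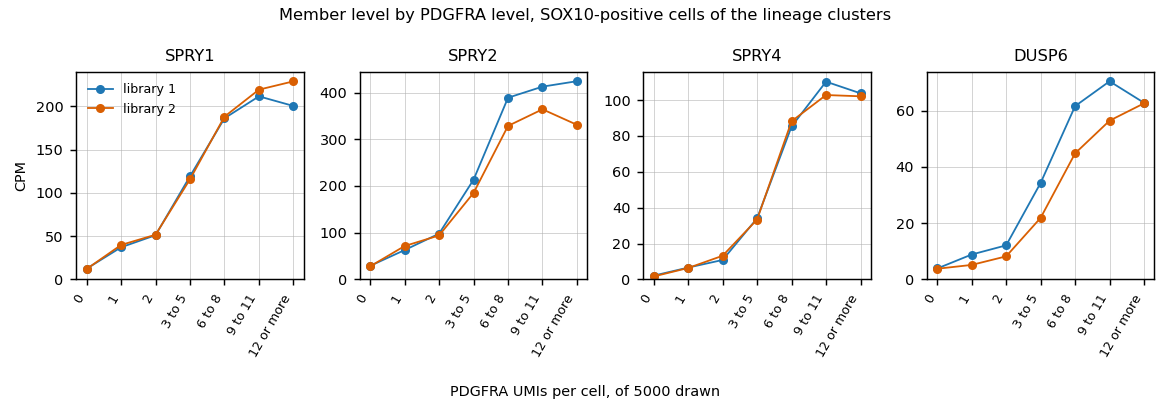
Level of each gene (CPM, linear axis from 0) against PDGFRA UMIs per cell of 5000 drawn, in SOX10-positive cells of the lineage clusters, one line per library. Levels climb up to 6 to 8 PDGFRA UMIs, where SPRY2 is at 389 and 329 CPM, and above it SPRY2 ends at 424 and 331 CPM. In library 2 DUSP6 climbs further, from 44.9 to 62.6 CPM.

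Other genes moved along the same strata. Markers of astroglia were present throughout: the 12 astrocyte or radial glia markers summed to 3416 and 3202 CPM in the top stratum and 1951 and 1730 CPM in the bottom one, against 32736 and 34079 CPM in astrocyte or radial glia-like cells, and none of the 12 was at 0. PDGFRA-high cells without a thinned UMI of the glutamate transporter SLC1A3, 61 in each library, had 346 and 232 CPM of SPRY2, 166 and 152 CPM of SPRY1, 63.4 and 55.2 CPM of SPRY4 and 63.4 and 27.6 CPM of DUSP6, but at full depth SLC1A3 was present in 70.5% and 78.7% of them, at 148 and 164 CPM. The other 604 and 423 PDGFRA-high cells had 426 and 357 CPM of SPRY2, 204 and 215 CPM of SPRY1, 101 and 90.5 CPM of SPRY4 and 68.7 and 49.2 CPM of DUSP6, higher in both libraries for each gene. Immediate early genes, which can be induced while tissue is dissociated, also differed. FOS was 448 and 537 CPM in the top stratum and 144 and 127 CPM in the bottom one, and JUN was 825 and 650.4 CPM in the top stratum and 199 and 112.8 CPM in the bottom one. Of the 13 such genes compared 7 were at least 2-fold higher in both libraries and 1, EGR2, lower, where 21.5% of all genes compared were higher and 6.45% lower. FOS and EGR1 also count among the ERK target genes below. The part of immediate early genes in the levels of the 4 genes was not tested.

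Lineage cells were also split by PDGFRA together with GPR17, a receptor of committed precursors, with at least 3 thinned UMIs taken as positive and 0 as negative. SPRY2 was 367 and 311 CPM in cells with PDGFRA only, 107 and 101 CPM in the 30 and 38 cells with both, 30.2 and 28.2 CPM in cells with GPR17 only, and 27.3 and 31.4 CPM in cells with neither. Cells with both receptors were therefore between the single states for SPRY2. The same held for SPRY4, at 85.2 and 78.3 CPM, 9.55 and 7.34 CPM, and 1.79 and 1.48 CPM in the first 3 states, although the middle values rest on 4 UMIs in each library. SPRY1 was 187 and 192 CPM with PDGFRA only, 38.2 and 55.1 CPM with both, and 9.87 and 9.47 CPM with GPR17 only.

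**Figure D3:**
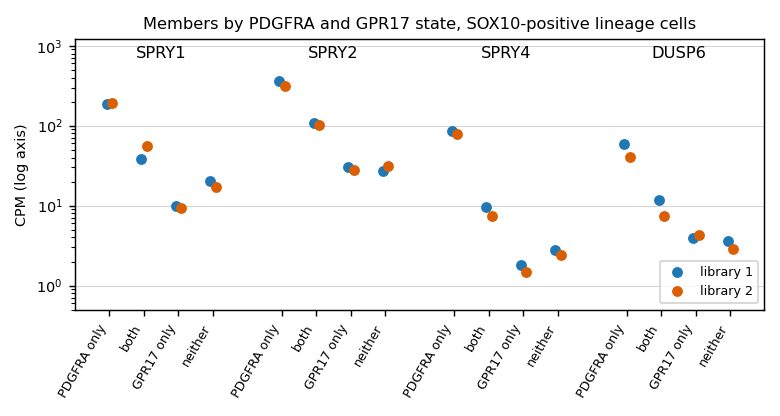
Level of each gene (CPM, log axis) in SOX10-positive lineage cells with PDGFRA only, both PDGFRA and GPR17, GPR17 only, or neither, one point per library. Cells with PDGFRA only have the highest level of every gene, for SPRY2 367 and 311 CPM, and cells with both lie between PDGFRA only and GPR17 only.

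How often the 4 genes were found in the same cells, relative to what their separate frequencies give, was described by class and pair. Such a ratio has a ceiling, which is lower where a gene is found in more cells. SPRY2 was found in 80.3% and 76.4% of PDGFRA-high cells but in 25.9% and 26.8% of PDGFRA-low cells. The ratios are therefore not compared between classes. In PDGFRA-high cells the ratio of observed cells with a pair of genes to the number their frequencies give ran between 0.99 and 1.27, and all 4 genes were found together in 6.32% and 5.17% of cells. In astrocyte or radial glia-like cells SPRY1 and DUSP6 were found together 1.34 and 1.38 times as often as their frequencies give, and all 4 genes in 0.312% and 0.52% of cells, while SPRY4 and DUSP6 were at 0.72 in library 1 and 1.30 in library 2. In PDGFRA-low cells SPRY4 and DUSP6 gave 5.67 and 3.36, from 4 and 2 cells, and in cycling PDGFRA-low cells the same pair gave 2.29 and 3.56, from 4 and 3 cells, and SPRY1 and SPRY2 gave 1.41 and 1.32. At the same thinned depth none of the 4 was seen in 4.96% and 8.26% of PDGFRA-high cells, in 10.3% and 14.4% of astrocyte or radial glia-like cells, and in 93.0% and 94.3% of ENPP6-positive cells. The astroglial ratios take no account of the 2 astroglial clusters.

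Comparisons other than early precursors against other cells were tested on summed counts, with a library as the replicate, so that each arm had n = 2. They used 1 edgeR quasi-likelihood fit of 9 classes and 12948 genes with Benjamini-Hochberg adjustment. The first 2 are not free of the choice of the genes. The first lies within the early precursors, and in the second PDGFRA itself differs. The fit took the 18 sums of class and library as separate samples, without pairing by library, and shared the spread over classes and genes. The p-values thus rest on a spread estimated over all 9 classes of the same 2 pools of embryos, not on the compared arms alone. The classes compared were themselves formed from expression in the same cells.

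The first asked whether early precursors that were cycling differed from those that were not. SPRY1 and DUSP6 fell in cycling PDGFRA-high cells, which are 94 and 70 cells with median depths of 14697 and 15256 UMIs, relative to 665 and 484 non-cycling PDGFRA-high cells at 11035 and 11865.5 UMIs. SPRY1 was 165 and 160.4 CPM in cycling cells and 200.3 and 207 CPM in non-cycling cells, without overlap (log2 fold change -0.42, SE 0.11, edgeR adjusted p = 0.0132). DUSP6 was 30.5 and 28.6 CPM in cycling cells and 68.2 and 46.5 CPM in non-cycling cells, again without overlap (-1.06, SE 0.29, edgeR adjusted p = 0.0186). SPRY2 overlapped, at 347 and 287 CPM in cycling cells and 419 and 342 CPM in non-cycling cells (-0.36, SE 0.13, edgeR adjusted p = 0.0744, or 0.0388 with the library as a block). SPRY4 was 67.0 and 78.3 CPM in cycling cells and 97.5 and 86.1 CPM in non-cycling cells, also without overlap (-0.45, SE 0.19, edgeR adjusted p = 0.125). For what share of all genes the groups did not overlap was not determined, so nothing is read from it. In PDGFRA-low cells, which were not tested, cycling over non-cycling levels mostly went the other way. The ratios there were 1.70 and 1.57 for DUSP6, 1.60 and 1.54 for SPRY4, 1.24 and 1.16 for SPRY2, and 1.30 and 0.99 for SPRY1.

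In PDGFRA-high cells 2 of 4 genes were thus lower, where 8.97% of all genes tested were lower, 9.18% higher and 18.1% called in either direction. The median log2 fold change was -0.44 over the 4 genes and -0.10 over all genes. PDGFRA was 1377 and 1373 CPM in cycling cells and 1572 and 1417 CPM in non-cycling cells (-0.22, edgeR adjusted p = 0.704). Of the wider pathway, ETV5, an ETS factor induced by ERK, fell by 0.72 on the log2 scale, at 208 and 245 CPM in cycling cells and 348 and 346 CPM in non-cycling cells (edgeR adjusted p = 0.000729). SPRED1, a relative of the Sprouty genes, fell by 0.39 (edgeR adjusted p = 0.0119), and FRS3, an adaptor of FGF receptors, fell by 2.29 (edgeR adjusted p = 0.00119). The phosphatase gene DUSP10 rose (1.20, edgeR adjusted p = 0.0172), as did the ligand FGF2 (0.81, edgeR adjusted p = 0.0238). Calls on FGF2, SPRED1, DUSP10 and FRS3 were each lost under some alternative settings, and that on ETV5 under none. None of the 7 FGF receptor genes tested and none of the 13 immediate early genes passed, of which FOS was 467 and 539 CPM in cycling cells and 455 and 545 CPM in non-cycling cells. These calls are fragile: with cycling replicate 1 or cycling replicate 2 left out, or with clustering at a resolution of 1.0, none of the 4 genes passed (SPRY1 adjusted p = 0.0513, 0.0819 and 0.421, DUSP6 adjusted p = 0.111, 0.114 and 0.191), and without non-cycling replicate 1 DUSP6 was lost (adjusted p = 0.126).

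The second comparison lay after the early precursor state, but still along PDGFRA, on which the genes were chosen. Higher levels in GPR17-high cells are therefore no independent support for that choice. All 4 genes passed as higher in GPR17-high cells than in ENPP6-positive cells, SPRY1, SPRY4 and DUSP6 at levels of under 10 CPM in both. SPRY2 was 35.0 and 35.0 CPM in GPR17-high cells and 7.10 and 7.80 CPM in ENPP6-positive cells (log2 fold change 2.07, SE 0.16, edgeR adjusted p = 9.68e-08), and SPRY1 was 9.59 and 9.56 CPM in GPR17-high cells and 4.45 and 4.34 CPM in ENPP6-positive cells (0.97, SE 0.15, edgeR adjusted p = 8.89e-05). DUSP6 was 4.97 and 4.95 CPM in GPR17-high cells and 1.70 and 1.43 CPM in ENPP6-positive cells (1.53, SE 0.39, edgeR adjusted p = 0.0048). SPRY4 rested on 15 and 14 UMIs in GPR17-high cells and 6 and 4 UMIs in ENPP6-positive cells (1.90, SE 0.45, edgeR adjusted p = 0.00296).

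The groups did not overlap for any of the 4, but the share of all genes for which this held was not determined, so nothing is read from it. Of all genes tested 25.8% were higher, 22.5% lower and 48.2% called in either direction, with a median of 1.71 over the 4 genes and 0.03 over all genes. Except for SPRY2, shares of cells in both classes were under the 6.82% that 0 of 44 erythroid-like cells of library 2 allow. For SPRY1, SPRY4 and DUSP6 these are thus differences between low levels, and the part of free RNA in them was not tested. Among pathway genes, FGFR1 (1.83, edgeR adjusted p = 1.22e-07) and FGFR3 (1.97, edgeR adjusted p = 1.4e-07) rose while FGFR2 fell by 3.49, at 36.9 and 55.1 CPM in GPR17-high cells and 429 and 499 CPM in ENPP6-positive cells (edgeR adjusted p = 1.08e-09). FGFR4 did not pass (0.20, edgeR adjusted p = 0.409). Of 8 ERK target genes 7 rose, among them ETV5 (1.61), ETV4 (1.33), ETV1 (0.71) and EGR1 (3.70), and PHLDA1 fell by 4.71. The ETV4 call was lost under some alternative settings. Other inhibitors on the gene list, which was not limited to feedback genes of ERK, were divided. Of these 3 of 15 were higher (SPRED2 0.99, IL17RD 1.31 and DUSP14 1.07) and 8 lower, including SPRED1 (-0.54), DUSP4 (-2.65) and DUSP10 (-4.58). DUSP16 was 0 and 0.691 CPM in GPR17-high cells and 86.1 and 78.7 CPM in ENPP6-positive cells. Among further receptors and ligands, KIT rose (4.19, edgeR adjusted p = 4.01e-07) and PDGFA fell by 5.53 (edgeR adjusted p = 4.13e-08).

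PDGFRA moved with the 4 genes, at 17.7 and 17.9 CPM in GPR17-high cells and 2.84 and 2.65 CPM in ENPP6-positive cells (2.55, edgeR adjusted p = 0.000654), and of 13 immediate early genes 4 rose, with BTG2 at 2.98, and 7 fell, with EGR2 at 0.231 and 0.23 CPM in GPR17-high cells and 11.9 and 24.7 CPM in ENPP6-positive cells. Their part in the result was not tested. Without doublet removal SPRY2 alone passed (1.09, adjusted p = 2.32e-05), SPRY1 was 0.06, DUSP6 was 0.54 and SPRY4 turned to -0.69 (adjusted p = 0.0762), and without ENPP6-positive replicate 2 SPRY4 was lost (adjusted p = 0.0543).

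**Figure D4:**
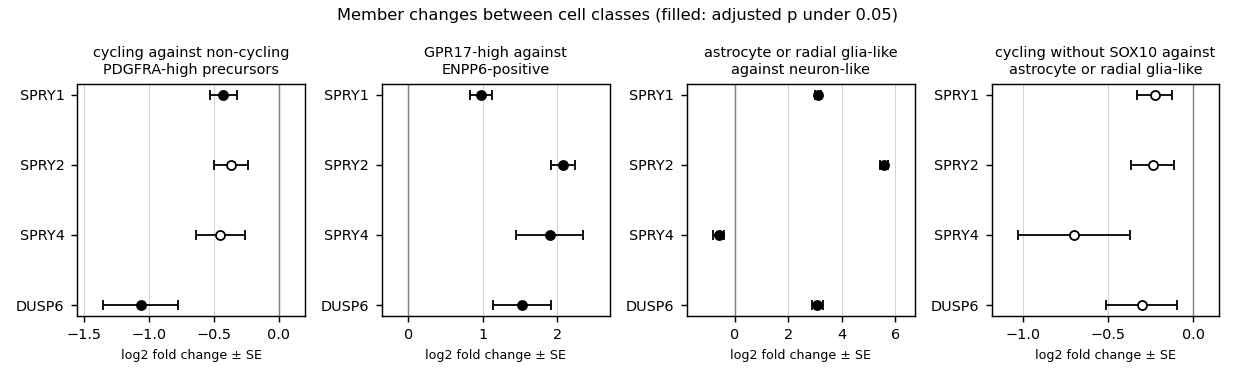
Log2 fold change of each gene in the 4 tested comparisons, first class over second (points, with bars of 1 SE), filled where the edgeR adjusted p was under 0.05; the horizontal scale differs between panels. All 4 genes lie right of 0 for GPR17-high against ENPP6-positive cells, and SPRY4 alone lies left of 0 (-0.61) for astroglia against neurons.

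Outside the lineage, astrocyte or radial glia-like cells had far more SPRY2, SPRY1 and DUSP6 than neuron-like cells, and SPRY4 was low in both. SPRY2 was 550.2 and 517 CPM in astroglia and 10.7 and 13.5 CPM in neurons (log2 fold change 5.58, SE 0.16, edgeR adjusted p = 2.43e-12). SPRY1 was 91.1 and 86.5 CPM in astroglia and 10.2 and 12.3 CPM in neurons (3.09, SE 0.11, edgeR adjusted p = 1.66e-11), and DUSP6 was 103 and 84.5 CPM in astroglia and 11.1 and 12.7 CPM in neurons (3.08, SE 0.22, edgeR adjusted p = 1.5e-08). SPRY4, found in both classes in shares of cells under the erythroid-like limit, passed as lower, at 3.63 and 4.51 CPM in astroglia and 5.23 and 8.32 CPM in neurons (-0.61, SE 0.20, edgeR adjusted p = 0.0158), but this call was lost without neuron-like replicate 2 (-0.27, adjusted p = 0.254) or without astrocyte or radial glia-like replicate 1 (-0.47, adjusted p = 0.111).

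Most genes differed between these classes, 35.8% higher and 35.9% lower in astroglia, 71.7% in either direction, so that a call here sets the 4 genes little apart. The median was 3.09 over the 4 genes and 0.01 over all genes. Neurons of library 2 carried more lineage transcripts than those of library 1, with 16.7 CPM of PDGFRA and 25.1 CPM of SOX10 against 3.997 and 6.72 CPM in library 1, and the part of this in the SPRY4 value was not tested. Of the 7 FGF receptor genes 5 rose in astroglia, with FGFR3 at 2623 and 2298 CPM in astroglia and 23.6 and 39.3 CPM in neurons (6.41), FGFR2 at 4.89, FGFR1 at 2.65 and FGFR4 at 0.99, and the klotho gene KLB fell. Of 15 other inhibitors 8 rose, among them LRIG1 (5.83), SPRED1 (2.82), IL17RD (1.56) and SPRED2 (1.24), and 4 fell, among them DUSP4 (-1.25). The ETS factors ETV4 (5.28), ETV5 (3.14) and ETV1 (1.51) rose. Ligand genes went the other way, 7 of 10 lower and FGF2 higher, with FGF9 at 0.502 and 0.702 CPM in astroglia and 39.4 and 34.9 CPM in neurons (-5.81, edgeR adjusted p = 2.5e-09). Other receptors named by size were PDGFRB, which rose to 16.6 and 20.9 CPM in astroglia, against 0.0878 and 0.182 CPM in neurons, and MET, which fell to 0.223 and 0.1 CPM in astroglia, against 15.2 and 10.2 CPM in neurons (edgeR adjusted p = 5.05e-08 and 6.31e-07).

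The last comparison set cycling progenitors without SOX10 against astrocyte or radial glia-like cells. No difference in the 4 genes passed. The astroglial arm pools the clusters led by RXFP1 and by AQP1, which were not tested apart. Cycling progenitors lay between these clusters for SPRY2, SPRY1 and DUSP6, and overlapped the AQP1-led one for SPRY4. The RXFP1-led and AQP1-led clusters had 704 and 735 against 326 and 252 CPM of SPRY2. For SPRY1 they had 130 and 130 against 34.3 and 33.4 CPM, and for DUSP6 139 and 121 against 50.2 and 39.7 CPM. SPRY2 was 498 and 426 CPM in cycling progenitors and 550.2 and 517 CPM in astroglia (-0.24, SE 0.13, edgeR adjusted p = 0.203), SPRY1 was 73.4 and 81.3 CPM in cycling progenitors and 91.1 and 86.5 CPM in astroglia (-0.23, SE 0.10, edgeR adjusted p = 0.141), and DUSP6 was 77.5 and 77.3 CPM in cycling progenitors and 103 and 84.5 CPM in astroglia (-0.30, SE 0.21, edgeR adjusted p = 0.336). SPRY4 was 2.24 and 2.80 CPM in cycling progenitors and 3.63 and 4.51 CPM in astroglia (-0.70, SE 0.33, edgeR adjusted p = 0.152). In each library each gene was lower in cycling progenitors than in the pooled astroglia, and the groups did not overlap. The share of all genes whose groups did not overlap was not determined, so nothing is read from this.

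The count of 0 of 4 compares with 9.65% of all genes lower, 13.7% higher and 23.4% in either direction, and the median was -0.27 over the 4 genes and -0.02 over all genes. At an unadjusted p under 0.05, edgeR gave 1 of the 4, SPRY1, and DESeq2 gave 3, of which SPRY1 passed after adjustment. This comparison and the one before it share the astroglial samples. The split of all calls depended on the scaling, with 58.7% of calls higher by the main scaling and 41.4% with RLE size factors, where the median of all genes was -0.13 in place of -0.02. ETV1 (-0.90, edgeR adjusted p = 2.53e-05), FGF18 (-0.92), FRS3 (-0.90), SPRED1 (-0.39) and SPRED2 (-0.35) fell in cycling progenitors. MAP2K1 (0.50) and GRB2 (0.27), which carry the signal from receptor to ERK, rose, and no one of FGFR1 to FGFR4 passed. Calls on MAP2K1, GRB2, FGF18, FRS3 and SPRED2 were each lost under some alternative settings, and those on ETV1 and SPRED1 under none.

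Set beside the 4 genes along the lineage, FGFR2 and FGFR3 followed other patterns and FGFR1 a like one. FGFR3 was 41.3 and 46.0 CPM in PDGFRA-high cells, 335 and 340 CPM in GPR17-high cells and 75.9 and 79.7 CPM in ENPP6-positive cells, so that of these 3 classes it was lowest in the one where SPRY1 and SPRY4 were highest. Outside the lineage FGFR3 was highest in astroglia, at 2623 and 2298 CPM, as was SPRY2. FGFR2 was 61.8 and 69.4 CPM in PDGFRA-high cells and 429 and 499 CPM in ENPP6-positive cells. Of these 3 lineage classes FGFR1 was, like each of the 4 genes, highest in PDGFRA-high cells, at 111 and 112 CPM. It was 11.7 and 10.8 CPM in GPR17-high cells and 2.93 and 2.78 CPM in ENPP6-positive cells. The ETS factor ETV5 had the same order, at 348 and 346 CPM, 39.3 and 44.9 CPM, and 13.0 and 11.9 CPM in these 3 classes.

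Over the PDGFRA strata of lineage cells, FGFR1 was higher with PDGFRA by 3.15 on the log2 scale (mean of 2 libraries, 6 or more against 0 PDGFRA UMIs), FGFR2 was -1.58 and FGFR3 -2.44. ETV4 was higher by 4.26, ETV5 by 3.05 and ETV1 by 1.47, and 6 of 8 ERK target genes were at least 2-fold higher in both libraries. Of 13 other inhibitors compared 4 were higher, LRIG1 (1.77), IL17RD (1.65), SPRED2 (1.21) and SPRED1 (1.15), 1 was lower, DUSP16, and DUSP4 was 0.01. In the same comparison 4 of the 4 genes described here were higher, where 21.5% of all genes compared were at least 2-fold higher and 6.45% lower (14.8% and 8.16% with cells of all classes left in). Nothing is read from that count, since PDGFRA level entered the choice of the genes.

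**Figure D5:**
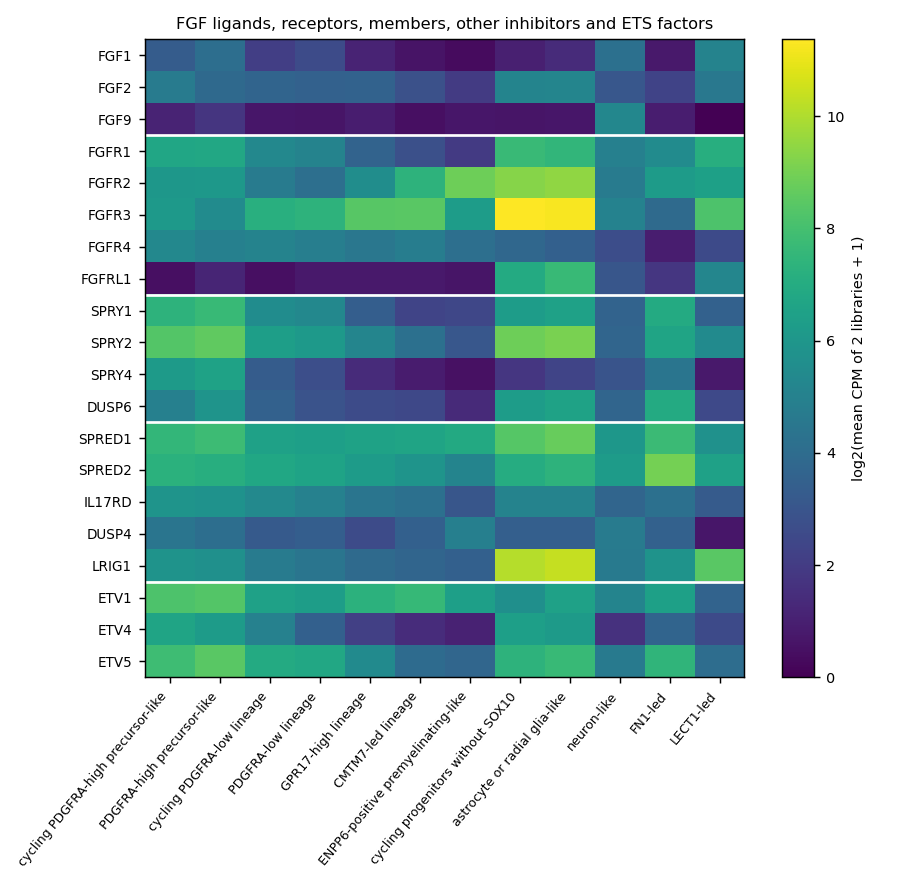
Mean level over the 2 libraries, as log2(CPM + 1), of FGF ligands, receptors, the 4 genes, other inhibitors and ETS factors (rows, split by white lines) in the 12 classes other than endothelial-like and erythroid-like cells. FGFR3 and LRIG1 are brightest in the astroglial columns, and SPRY4 and ETV5 in the PDGFRA-high columns.

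Finally, genes were ranked by how much their profile over the 14 classes resembled that of each of the 4 genes, as Pearson's r of log2(CPM + 1), taking the lower of the 2 libraries, among 10406 genes. This is a description, since classes share libraries and depth. The closest to SPRY2 were RHBDF1 (r = 0.94 and 0.96), ETV4, CDC14A, ETV5 and DDIT4, and the closest to SPRY1 were PLEKHH2 (0.94 and 0.98), ETV5 (0.94 and 0.98), SPARC, CYP7B1 and RAD54L. SPRY4 was most like SLC9A7 (0.93 and 0.94), MTMR12, AKR1D1, LRFN5 and REV3L. DUSP6 was most like ANGPT2 (0.92 and 0.93), JAG1, TSC22D1, IGFBP3 and GGH. Between the 4 genes themselves r was highest for SPRY1 with SPRY2, 0.86 and 0.92, and lowest for SPRY2 with SPRY4, 0.67 and 0.65. PDGFRA was most like SPRY4 of the 4 genes (0.67 and 0.75) and least like DUSP6 (0.15 and 0.20).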

How the data were processed

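For each chicken library the deposited matrix gives unnormalised UMI counts for all barcodes. The authors produced it with Cell Ranger 7.2.0 and a custom chicken reference of Ensembl release 113. Barcodes over the study's UMI and gene minimums were kept, and the 6.52% and 6.63% with the highest Scrublet scores (scanpy 1.11.5) were removed. Cells were clustered in Seurat 5.3.0 (2000 variable features, 10 components, resolution 0.5). Class names needed at least 3 listed markers, and the CPM thresholds were set after the clusters were seen, as were the strata with SLC1A3. Detection shares used cells thinned to 5000 UMIs.

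Counts were summed per library and class with at least 50 cells per library and tested in edgeR 4.0.16 (TMM, filterByExpr, quasi-likelihood, R 4.3.3), tested first on simulated data. DESeq2 1.42.0 was an alternative. Classes of a library come from the same embryos, so library numbers pair them. The main fit left this pairing out, and a library block was an alternative. Deviations correlated at 0.159, 0.278, 0.269 and 0.391 in the 4 comparisons. The libraries differed by more than counting noise (chi-square per degree of freedom 84.3), unlike repeat deposits of 1 library. The labels number them as separate samples. The genes and lists were chosen with earlier results of these data known. Text names the 4 genes, PDGFRA, SOX10, GPR17 and ENPP6, FGFR1 to FGFR4, ETV1, ETV4, ETV5, SPRED1 to SPRED3, IL17RD and DUSP4, up to 3 list genes per direction and comparison by size, and the 5 genes nearest each in profile; others were named after their values were seen. SPRED3, DUSP2, RASA1, FOSL1, IER2, FOSB, JUNB and ZFP36 were not analysed here.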

Additional observations from a re-analysis of the deposited data

How the results depend on the processing

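Of 762 gene values recomputed under alternatives, 711 kept their direction and side of the threshold, 45 were no longer past it, 5 newly passed it and 1 reversed, SPRY4 in GPR17-high against ENPP6-positive cells, which was -0.69 with no doublet removal. In that comparison 1 of the 4 genes passed with no doublet removal. Each leave-out dropped the summed sample of 1 class in 1 library, and no whole library was left out. With such a sample left out of that comparison, SPRY4 ran between 1.41 and 2.42 on the log2 scale. For cycling against non-cycling PDGFRA-high cells, 0 of the 4 passed at resolution 1.0 and 0 to 3 with a library left out, and genes called over the whole table ran between 1381 (without cycling replicate 1) and 1772 with a library left out. For cycling progenitors without SOX10 against astroglia, 1 of the 4 (SPRY1) passed with DESeq2, with RLE size factors and at resolution 1.0, and calls over all genes ran between 1921 (without cycling progenitor replicate 2) and 2276 with a library left out. With the library as a replicate block, SPRY2 passed in cycling against non-cycling cells (adjusted p = 0.0388), and no other call on the 4 genes changed. The cause of these shifts was not tested. With 1 summed sample left in an arm, it was assumed to vary like the other classes. No doublet removal, and clustering with the pathway genes among the variable features, gave no cycling PDGFRA-high class, so that comparison has no value there. For 4 of 4 genes under every alternative run, PDGFRA-high cells were at least 2-fold above ENPP6-positive cells. The same held for the top PDGFRA stratum over the bottom one. Nothing is read from these counts, since the genes were chosen on this axis. With the settings above, 14.8% of all genes compared were at least 2-fold higher in the top stratum, or 21.5% within lineage clusters. For PDGFRA-high against ENPP6-positive cells the share of all genes was not determined. Leaving out shared barcodes and restricting strata to lineage clusters were alternatives chosen after seeing the data. Low sums, such as 6 and 4 UMIs of SPRY4 in ENPP6-positive cells, limit what could be detected.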
